A study of Homo sapiens with 18 samples.

Results

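Regulators of the epithelial-mesenchymal transition and the mesenchymal filament gene VIM were examined in the RNA-seq data of 6 ovarian cancer cell lines. The 10 genes were chosen by name, from their known roles, when earlier results of these data were known. They comprise the inducing factors ZEB1, ZEB2, SNAI1 and TWIST1, the mesenchymal filament gene VIM, the epithelial regulators GRHL1, OVOL1, ELF3 and ESRP2, and the epithelial surface gene EPCAM. The deposited table of 12853 genes held 9 of them, and SNAI1 had no row, so no value of SNAI1 is given.

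The lines form 3 pairs of a platinum-sensitive and a platinum-resistant line, each sequenced as 3 libraries (18 in all). A2780, labelled an endometrial/ovarian cancer line, is the sensitive parent of CP70, which was made resistant in culture. The PEA and PEO pairs each come from 1 patient with high-grade serous ovarian cancer. PEA1 cells were taken from ascites when no platinum had yet been given, and PEA2 cells from the same patient's ascites once the disease had returned and no longer responded. For the PEO pair platinum had been given before either line was made, and the tumour was still clinically sensitive at the time of PEO1 and resistant by the time of PEO4. All 6 were kept in RPMI-1640 with glutamine and fetal bovine serum, and the labels name no drug treatment of these libraries and no genetic change made to the cells. Each pair is 1 sensitive and 1 resistant line of 1 patient or parent line, so a difference within a pair is a difference between those lines.

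Epithelial cells hold to their neighbours through E-cadherin junctions and desmosomes and build their filaments from keratins, whereas mesenchymal cells lose these contacts and build filaments from vimentin. ZEB, SNAI and TWIST factors switch cells towards the mesenchymal state, the ZEB and SNAI proteins by binding E-box sequences in the promoters of epithelial genes and repressing them. Grainyhead-like, OVOL and ELF3 transcription factors and the ESRP splicing regulators maintain the epithelial state, and carcinomas of the ovary often hold parts of both programmes at the same time.

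Because the ZEB and SNAI proteins recognise the E-box letters CACCTG, the promoters of the 10 genes were searched for them on both strands. RefSeq promoter windows on GRCh38.p14, running from 250 bases before to 50 bases after a transcription start, were matched for 5 of the 10 genes (ZEB1 with 7 windows, and ZEB2, VIM, GRHL1 and ELF3 with 1 each). SNAI1, TWIST1, OVOL1, ESRP2 and EPCAM were not matched. The 250 bases before the start are shown for ELF3, an epithelial gene whose window holds the E-box, for the ZEB1 start with the most matches, and for VIM, whose window holds none. Capitals mark the E-box on either strand and all 3 windows are on the plus strand, at chr1:202010337-202010586 for ELF3, chr10:31318966-31319215 for ZEB1 and chr10:17227991-17228240 for VIM.
ELF3: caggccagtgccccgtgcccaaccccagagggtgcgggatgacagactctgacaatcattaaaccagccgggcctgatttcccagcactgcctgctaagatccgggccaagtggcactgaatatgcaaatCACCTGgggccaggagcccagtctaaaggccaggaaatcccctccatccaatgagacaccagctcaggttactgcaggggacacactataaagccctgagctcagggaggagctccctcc
ZEB1: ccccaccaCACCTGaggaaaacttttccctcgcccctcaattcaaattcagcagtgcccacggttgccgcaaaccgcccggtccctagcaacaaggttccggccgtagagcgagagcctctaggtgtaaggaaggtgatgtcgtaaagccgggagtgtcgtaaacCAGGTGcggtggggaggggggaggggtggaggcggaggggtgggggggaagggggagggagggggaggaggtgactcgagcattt
VIM: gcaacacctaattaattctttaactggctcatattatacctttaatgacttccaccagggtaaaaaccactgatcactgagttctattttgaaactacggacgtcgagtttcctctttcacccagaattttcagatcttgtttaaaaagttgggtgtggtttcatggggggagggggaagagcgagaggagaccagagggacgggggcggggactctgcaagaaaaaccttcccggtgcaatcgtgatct
The ELF3 window held 1 E-box, with its first base at -120 from the start. The ZEB1 window shown held 3, at -242, -85 and 34, of which the last lies after the start and so beyond the letters shown. Of the 7 ZEB1 windows, 2 held the E-box (4 matches in all), and the ZEB2, VIM and GRHL1 windows held none. Of 35116 promoter windows of this length, 20.6% held at least 1 E-box and 0.635% held at least 3. The site of the grainyhead-like factors was searched as AACCNGTT on both strands, and it was in 0 of the 11 windows of these genes, against 1.73% of all windows. These matches describe letters only, and binding was not measured here.

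The values are log2 CPM with 0.5 reads added to each count. The reads on listed genes lay between 1344098 and 7067336 per library (median 2926659), and the floor used for lower bounds was 3 reads summed over the 3 libraries of a line, or 0.212 to 0.664 CPM. PEA1 was the shallowest line, at 1344098 to 1670866 reads. The spread between libraries of the same line exceeded counting noise (chi-square divided by its degrees of freedom, 1.75 to 13.8). The labels do not say whether they were separate cultures, so the p-values measure the spread between these libraries, which may be technical. Of 7 markers of serous carcinoma, all 7 had at most 3 reads in A2780 and 5 had at most 3 reads in CP70. In each of the PEA and PEO lines only 1 of the 7 was that low. Their summed level was 0 to 0.258 CPM in A2780 and 0.789 to 1.90 CPM in CP70, against 341 to 455 CPM in PEA1, 525 to 664 in PEA2, 2823 to 4085 in PEO1 and 2910 to 4707 in PEO4. In PEA1 PAX8 alone averaged 330 CPM, while MSLN, MUC16 and SOX17 had 4, 8 and 13 reads in all. A gene is called changed at an FDR below 0.05 in limma (Benjamini-Hochberg over 12853 genes) and differentially expressed when |log2FC| is also above 2, with log2FC always the resistant minus the sensitive line.

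By ZEB1, VIM and the 5 epithelial genes, the 6 lines fell into a mesenchymal and an epithelial group. A2780, CP70 and PEA1 made up the mesenchymal group and PEA2, PEO1 and PEO4 the epithelial group. The resistant line stood in another group than its sensitive counterpart in the PEA pair only. The names rest on those genes, and mesenchymal genes outside the list went both ways. FN1 and CAV1 were lower in A2780 and CP70 than in PEA2, PEO1 and PEO4, while TAGLN and ACTA2 were higher. A2780, CP70 and PEA1 had high ZEB1 and VIM and low EPCAM, ESRP2, ELF3, GRHL1 and OVOL1. PEA2, PEO1 and PEO4 had less ZEB1 and VIM and more of the 5 epithelial genes. Of these 3 lines PEA2 had the most VIM and the least GRHL1, ELF3 and OVOL1, the last with 11 reads in all. CP70 held VIM and ZEB1 near the levels of its parent but had more EPCAM and less TWIST1. PEO4 held epithelial genes near the levels of PEO1 and had more VIM.

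**Figure D1:**
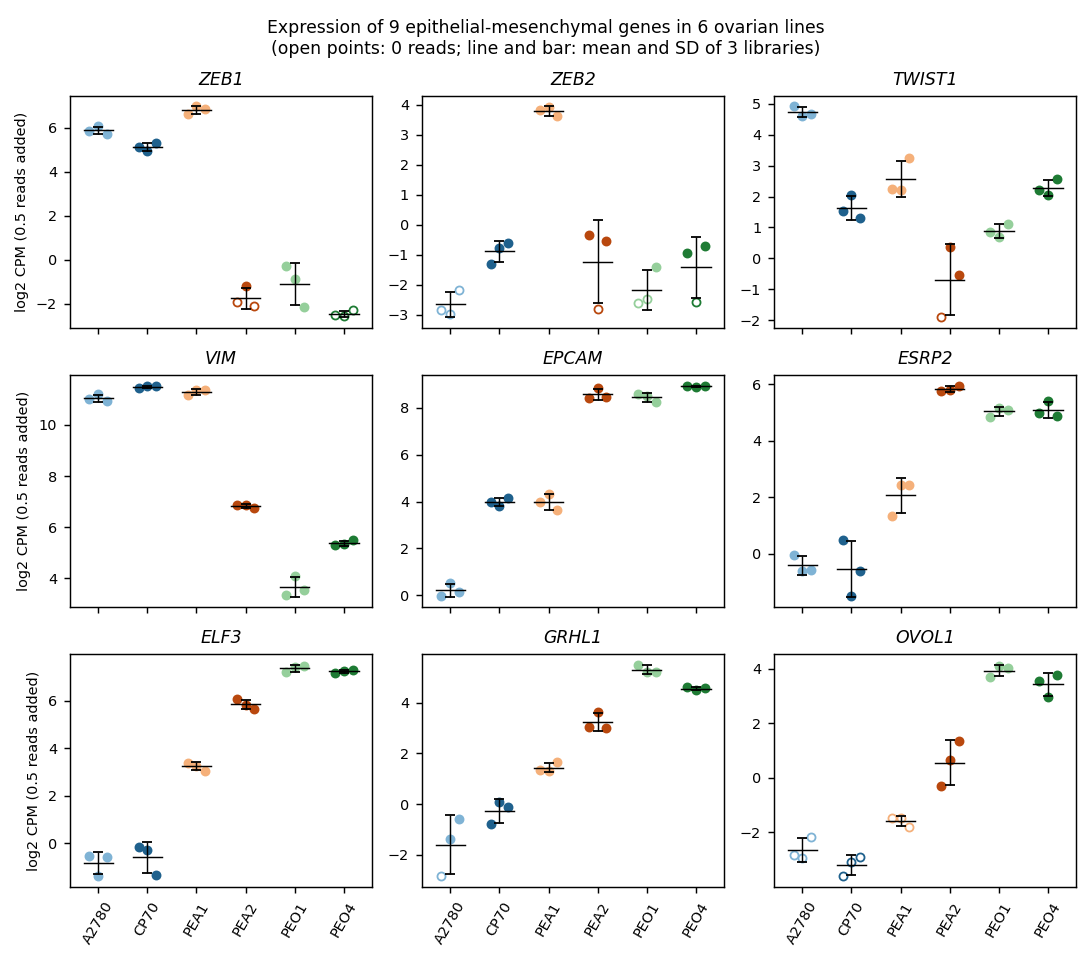
Level of each of the 9 genes (log2 CPM with 0.5 reads added, y axis) in the 3 libraries of each line (points; open points had 0 reads), with the line mean and SD as a bar. ZEB1 and VIM were high in A2780, CP70 and PEA1, ESRP2, ELF3 and EPCAM were highest in PEA2, PEO1 and PEO4, and ZEB2 was above 3 on the log2 scale only in PEA1.

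ZEB1 (ENSG00000148516, chr10:31607424-31818742 on GRCh37, plus strand) encodes a zinc-finger repressor of E-cadherin and other epithelial genes. Its level was 6.61, 6.96 and 6.82 log2 CPM (134 to 196 reads) in the PEA1 libraries, 5.83, 6.05 and 5.73 in A2780 (118 to 257 reads), and 5.11, 4.92 and 5.30 in CP70 (127 to 210 reads). PEA2 had 0, 1 and 0 reads, PEO1 had 2, 1 and 1, and PEO4 had 0 in every library. PEA1, A2780 and CP70 thus lay more than 5 log2 units above the other 3, and no library stood between.

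In the PEA pair ZEB1 fell from 504 reads to 1, a log2FC of -8.55 ± 0.39 (SE, FDR = 4.44e-13 in limma). Per library size, PEA1 held 841 times as many reads as PEA2, with a 95% counting interval of 150.2 to 33263, and with 2 reads added the log2FC was -6.89. In the A2780 pair the libraries did not overlap and CP70 was lower, at a log2FC of -0.76 ± 0.39, which did not pass in the fit of all lines (FDR = 0.128). It passed with the pair fitted alone (FDR = 0.000629), with voom precision weights (FDR = 4.02e-05) and with 2 reads added to each count (FDR = 0.0472). In the PEO pair a log2FC of -1.36 passed (FDR = 0.00777) on 0 reads against 4. So few reads give no fold, and the call was lost under 5 alternatives, among them leaving out PEO1 replicate 1 (FDR = 0.0613).

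ZEB2 (ENSG00000169554, chr2:145121931-145278624, minus strand), the paralog of ZEB1 with the same kind of target sites, had more than 6 reads in PEA1 alone. PEA1 had 19, 21 and 21 reads (3.82, 3.94 and 3.63 log2 CPM), PEA2 had 1, 0 and 1, and A2780 had 0 in every library. CP70 had 2 reads in each library, PEO1 had 0, 0 and 2, and PEO4 had 1, 0 and 1. PEA1 stood apart from every other library.

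The fall of ZEB2 in PEA2 was -5.02 ± 0.61 (FDR = 5.73e-07), from 61 reads to 2, and the ratio of reads was 50.9 (95% counting interval 13.5 to 429). It was -4.23 without PEA2 replicate 2 (FDR = 2.63e-06) and -3.78 with 2 reads added. In CP70 the 6 reads against 0 gave a log2FC of 1.77 (FDR = 0.0250). The floor bounds this at 1.37-fold or more, and the call was lost with 2 reads added (FDR = 0.350) and without A2780 replicate 1 or 2 or CP70 replicate 2 or 3 (FDR between 0.0682 and 0.0792). In the PEO pair both lines had 2 reads in all, and no fold can be given.

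TWIST1 (ENSG00000122691, chr7:19060614-19157259, minus strand) encodes a basic helix-loop-helix factor that drives mesenchymal and mesodermal genes. It was highest in A2780, at 4.92, 4.61 and 4.66 log2 CPM (108, 94 and 56 reads), and was 1.52, 2.05 and 1.32 in CP70 (17, 17 and 9 reads). PEA1 had 2.24, 2.21 and 3.25 (6, 6 and 16 reads) and PEA2 had 0, 4 and 1 reads. PEO1 had 0.84, 0.69 and 1.13 (5, 4 and 14 reads) and PEO4 had 2.22, 2.06 and 2.56 (13, 12 and 14 reads). Unlike ZEB1, it was not separated between the mesenchymal and epithelial groups, and the libraries of PEO4 lay above those of CP70.

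TWIST1 fell by 3.10 in CP70 (log2FC, SE 0.45, FDR = 1.13e-05), 8.57-fold, and by 3.26 in PEA2 (SE 0.45, FDR = 3.24e-06), 9.57-fold. On 28 reads in PEA1 against 5 in PEA2, the ratio was 9.34 (95% counting interval 3.56 to 31.0). The log2FC in PEA2 was -2.65 without PEA2 replicate 1 (FDR = 1.28e-05) and -2.36 with 2 reads added. It rose in PEO4, at a log2FC of 1.39 ± 0.45 (FDR = 0.0173), 2.63-fold. The libraries of the paired lines did not overlap in any of the 3 pairs. The rise in PEO4 did not pass without PEO1 replicate 2 (FDR = 0.0565) or without PEO4 replicate 3 (FDR = 0.0644), and with quantile normalization it was 2.05.

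VIM (ENSG00000026025, chr10:17270240-17279592, plus strand) encodes vimentin, the intermediate filament of mesenchymal cells. Its level was 11.01, 11.20 and 10.93 log2 CPM in A2780 (4356 to 9088 reads), 11.43, 11.52 and 11.52 in CP70 (11163 to 16892 reads), and 11.17, 11.37 and 11.35 in PEA1 (3166 to 4538 reads). It was 6.88, 6.86 and 6.74 in PEA2 (220 to 402 reads), 5.31, 5.33 and 5.49 in PEO4 (110 to 120 reads), and 3.36, 4.09 and 3.55 in PEO1 (31 to 77 reads). The epithelial group thus still had VIM reads in every library, and its 3 lines were ordered without overlap.

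VIM fell in PEA2 by 4.47 (log2FC, SE 0.13, FDR = 8.48e-16), 22.2-fold. It rose in PEO4, with a log2FC of 1.71 ± 0.13 (FDR = 2.97e-09), 3.27-fold, though PEO4 stayed below PEA2 by 1.45 (FDR = 7.36e-09). In CP70 it was 1.36-fold higher, a log2FC of 0.45 ± 0.13 that passed the FDR (0.00938) but not with quantile normalization (FDR = 0.0534). As cultures were measured in bulk, fewer cells with a transcript and less of it per cell cannot be told apart, for VIM or for any gene here.

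GRHL1 (ENSG00000134317, chr2:10091822-10142405, plus strand) encodes a grainyhead-like factor that activates desmosome and other junction genes. It was highest in PEO1, at 5.50, 5.22 and 5.22 log2 CPM (138, 104 and 247 reads), followed by PEO4 at 4.61, 4.49 and 4.59 (70, 67 and 59 reads) and PEA2 at a mean of 3.23 (15, 43 and 17 reads). PEA1 had 3, 3 and 5 reads, CP70 had 3, 4 and 3, and A2780 had 0, 1 and 1. Levels were graded from the PEO lines down to A2780.

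GRHL1 rose in PEA2, with a log2FC of 1.79 ± 0.43 (FDR = 0.00120), 3.46-fold, which is short of the threshold on log2FC. PEO4 lay below PEO1 without overlap, at a log2FC of -0.75 ± 0.43 (FDR = 0.174), and this passed with the pair fitted alone (FDR = 0.000405) and with voom weights (FDR = 0.000538). In CP70 a log2FC of 1.32 passed (FDR = 0.0182) on 10 reads against 2. The ratio of these reads was 3.43, with a 95% counting interval of 0.731 to 32.2 that includes no difference. The call was lost without A2780 replicate 1 (FDR = 0.143), CP70 replicate 2 (FDR = 0.0769) or CP70 replicate 3 (FDR = 0.0562). It was also lost with 2 reads added (FDR = 0.224), quantile normalization (FDR = 0.153), the pair fitted alone (FDR = 0.0939) and voom weights (FDR = 0.0530).

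OVOL1 (ENSG00000172818, chr11:65554534-65564685, plus strand) encodes a zinc-finger repressor that opposes ZEB factors in epithelia. It had 0 reads in all 9 libraries of A2780, CP70 and PEA1, where the floor lies at 0.310, 0.212 and 0.664 CPM, so lower levels could not be seen. PEA2 had 1, 5 and 5 reads, PEO1 had 39, 47 and 107 (3.69, 4.09 and 4.02 log2 CPM), and PEO4 had 33, 23 and 33 (3.54, 2.97 and 3.76). PEA2 was the lowest of the 3 lines with reads.

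The rise of OVOL1 in PEA2 had a log2FC of 2.14 (FDR = 0.000269) on 11 reads against 0, which the floor bounds at 2.20-fold or more. With 2 reads added it was 0.71 (FDR = 0.0661), and without PEA2 replicate 3 it was 1.75. PEO4 and PEO1 overlapped, at a log2FC of -0.51 ± 0.43 (FDR = 0.380), which voom weights brought to an FDR of 0.0461.

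ELF3 (ENSG00000163435, chr1:201977073-201986311, plus strand) encodes an ETS factor of epithelial differentiation. It was 7.20, 7.42 and 7.48 log2 CPM in PEO1 (450 to 1185 reads), 7.16, 7.27 and 7.29 in PEO4 (384 to 462 reads), and 6.06, 5.84 and 5.67 in PEA2 (111 to 198 reads). PEA1 held 3.40, 3.27 and 3.06 (13 or 14 reads), while A2780 had 2, 1 and 1 reads and CP70 had 5, 3 and 1. PEA1 therefore lay between the other mesenchymal lines and the epithelial group.

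ELF3 rose 6.13-fold in PEA2 (log2FC 2.62 ± 0.29, FDR = 1.40e-07). Neither other pair passed. The difference was 0.23 in CP70 (95% interval -0.36 to 0.83, FDR = 0.543) and -0.13 in PEO4 (-0.72 to 0.47, FDR = 0.757), with overlapping libraries in both. In CP70 the ratio of 9 reads to 4 had a wider 95% counting interval, of 0.431 to 6.86.

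ESRP2 (ENSG00000103067, chr16:68262936-68272005, minus strand) encodes a splicing regulator that sets the epithelial isoforms of many transcripts. It was 5.77, 5.81 and 5.96 log2 CPM in PEA2 (102 to 195 reads), 4.98, 5.41 and 4.90 in PEO4 (73 to 127 reads), and 4.85, 5.17 and 5.11 in PEO1 (88 to 229 reads). PEA1 had 3, 7 and 9 reads, A2780 had 3, 2 and 1, and CP70 had 8, 1 and 2. Here PEA2 led the epithelial group, unlike for GRHL1, OVOL1 and ELF3.

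The rise of ESRP2 in PEA2 was 13.7-fold (log2FC 3.78 ± 0.40, FDR = 8.14e-08). The log2FC was -0.13 in CP70 (95% interval -0.95 to 0.70, FDR = 0.830) and 0.05 in PEO4 (-0.77 to 0.88, FDR = 0.930). In PEO4 this interval leaves room for a change of up to about 1 log2 unit. In CP70 the ratio of 11 reads to 6 had a wider 95% counting interval, of 0.426 to 4.14.

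EPCAM (ENSG00000119888, chr2:47572297-47614740, plus strand) encodes the adhesion molecule by which carcinoma cells are commonly recognised. Its level was 8.92, 8.88 and 8.96 log2 CPM in PEO4 (1225 to 1407 reads), 8.42, 8.86 and 8.46 in PEA2 (640 to 1614 reads), and 8.60, 8.53 and 8.24 in PEO1 (1032 to 1999 reads). CP70 had 3.97, 3.82 and 4.17 (95, 59 and 68 reads) and PEA1 had 3.96, 4.34 and 3.63 (21, 28 and 21 reads). A2780 had 3, 5 and 2 reads. CP70 and PEA1 formed a middle level, and the difference between them did not pass (0.01 ± 0.18, FDR = 0.976).

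EPCAM rose 13.7-fold in CP70 (log2FC 3.77 ± 0.18, FDR = 6.09e-13) and 24.2-fold in PEA2 (log2FC 4.60 ± 0.18, FDR = 4.42e-14). On 222 reads in CP70 against 10 in A2780, the ratio was 15.2 (95% counting interval 8.12 to 32.2). With quantile normalization the rise in CP70 was 2.41. It ended at the middle level, more than 4 log2 units below PEA2, PEO1 and PEO4. In PEO4 the log2FC was 0.46 ± 0.18 (FDR = 0.0402). That call was lost without any 1 library of the pair other than PEO1 replicate 1 (FDR between 0.0638 and 0.176) and in limma without the trend (FDR = 0.0655).

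VIM and EPCAM can be set against each other only per length of transcript, since long transcripts yield more fragments. In CPM per kilobase of annotated exon, VIM was 409 ± 39.5 (SD, n = 3) in A2780, 557 ± 19.3 in CP70 and 487 ± 37.3 in PEA1. EPCAM on the same scale was 0.415 ± 0.101, 6.51 ± 0.806 and 6.49 ± 1.63. In PEA2 the order turned, with VIM at 21.9 ± 1.07 and EPCAM at 159 ± 28.2. PEO1 had VIM at 2.48 ± 0.679 and EPCAM at 145 ± 18.7, and PEO4 had 7.99 ± 0.548 and 198.9 ± 5.66. Vimentin transcripts therefore exceeded those of EPCAM in all libraries of A2780, CP70 and PEA1 and were fewer in all libraries of the other 3 lines.

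The lines were ordered for each gene and neighbours in that order were tested. Of 45 such neighbours, 6 held no more than 3 reads on either side. Of the other 39, 21 differed at an FDR below 0.05 and 18 did not pass. Over all genes, 34.1% of neighbours chosen in the same way passed. CP70, PEA1 and A2780 did not pass between neighbours for VIM, nor did PEA1, PEO4, CP70 and PEO1 for TWIST1. PEO1 and PEO4 did not pass as neighbours for GRHL1, OVOL1, ELF3 and ESRP2.

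To place each library on 1 axis, the mean Z score of the 4 mesenchymal genes (ZEB1, ZEB2, TWIST1 and VIM) was subtracted from that of the 5 epithelial ones, with Z taken over the 18 libraries. The index lay between -2.02 and -1.85 in A2780, between -1.48 and -1.29 in CP70, and between -1.56 and -1.41 in PEA1. It lay between 1.36 and 1.44 in PEA2, between 1.38 and 1.66 in PEO4, and between 1.85 and 1.93 in PEO1. No library lay between -1.29 and 1.36. The resistant line was 0.55 higher in the A2780 pair, 2.87 higher in the PEA pair and lower in the PEO pair (-0.40). The index describes these genes together and was not tested.

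**Figure D2:**
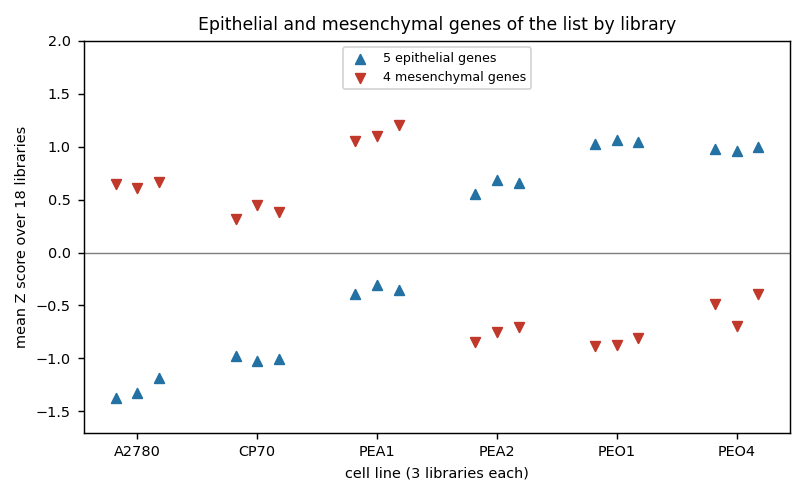
Mean Z score over the 18 libraries (y axis) of the 5 epithelial genes (upward triangles) and the 4 mesenchymal genes (downward triangles), for the 3 libraries of each line. The mesenchymal genes lie above the epithelial ones in A2780, CP70 and PEA1 and below them in PEA2, PEO1 and PEO4.

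In the PEA pair all 9 genes changed, the 4 mesenchymal genes downward and the 5 epithelial genes upward. By both thresholds 8 of 9 were differentially expressed, against 14.1% of all genes, and GRHL1 was the exception. Of these, 4 were lower, against 6.15% of all genes, and 4 were higher, against 7.93%. At the FDR alone 9 of 9 passed, against 61.9% of all genes (5 higher, against 32.5%, and 4 lower, against 29.4%), and the libraries did not overlap for 9 of 9, against 62.6%. Markers of other cell types differed in this pair as well. Of the leukocyte list 1 of 5 genes was in the table, PTPRC, which had 0 reads in PEA1 and 20.2 to 25.1 CPM in PEA2, and of the endothelial list 1 of 4, CDH5, with 0 reads in PEA1 and 25.3 to 36.1 CPM in PEA2. Of 5 fibroblast markers 3 were in the table, DCN and LUM were at 0 in both lines, COL6A3 had 19 reads in PEA1 and 10 in PEA2 (FDR = 0.0864), and the summed level was 2.30 to 6.54 CPM in PEA1 and 1.07 to 1.83 CPM in PEA2. Of 4 mesothelial markers 3 were in the table, at a summed 146 to 177 CPM in PEA1 and 240 to 298 CPM in PEA2. The part of such cells in the result was not tested.

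In the A2780 pair 2 of 9 genes were differentially expressed, TWIST1 lower and EPCAM higher, against 9.06% of all genes (3.4% lower and 5.66% higher). At the FDR alone 5 of 9 passed, against 39.9% of all genes. Of these, VIM, ZEB2, GRHL1 and EPCAM were higher, against 22.2%, and TWIST1 was lower, against 17.7%. The calls of ZEB2 (6 reads against 0) and GRHL1 (10 against 2) rest on few reads and were lost under several alternatives. The libraries did not overlap for 5 of 9, against 54.6% of all genes, which is near the background. Fibroblast markers moved in this pair too. DCN rose from 22 reads to 335 (log2FC 3.37, FDR = 4.96e-05) and LUM from 10 to 160 (3.86, FDR = 2.63e-05), while COL6A3 fell from 866 to 7 (-7.68, FDR = 5.05e-08). These are the 3 of 5 in the table, at a summed 84.6 to 106 CPM in A2780 and 34.4 to 36.4 CPM in CP70, and their part in the result was not tested.

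In the PEO pair 0 of 9 genes were differentially expressed in limma, against 6.22% of all genes (2.86% higher and 3.37% lower), and with voom weights the count was also 0. At an unadjusted p below 0.05 in limma 4 of 9 passed, for which the share of all genes was not computed. At the FDR alone 4 of 9 passed, against 41.5% of all genes. VIM, TWIST1 and EPCAM were higher in PEO4, as were 19.6% of all genes, and ZEB1 was lower, as were 21.9%. The ZEB1 call rests on 0 reads against 4. The libraries did not overlap for 5 of 9, against 57.5% of all genes. Of the 4 epithelial regulators none passed, by limma, in the direction of either line. Of the fibroblast markers COL6A3 rose in PEO4, from 7 reads to 45 (log2FC 3.42, FDR = 0.000958), with DCN and LUM at no more than 1 read in either line, and its part in the result was not tested.

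**Figure D3:**
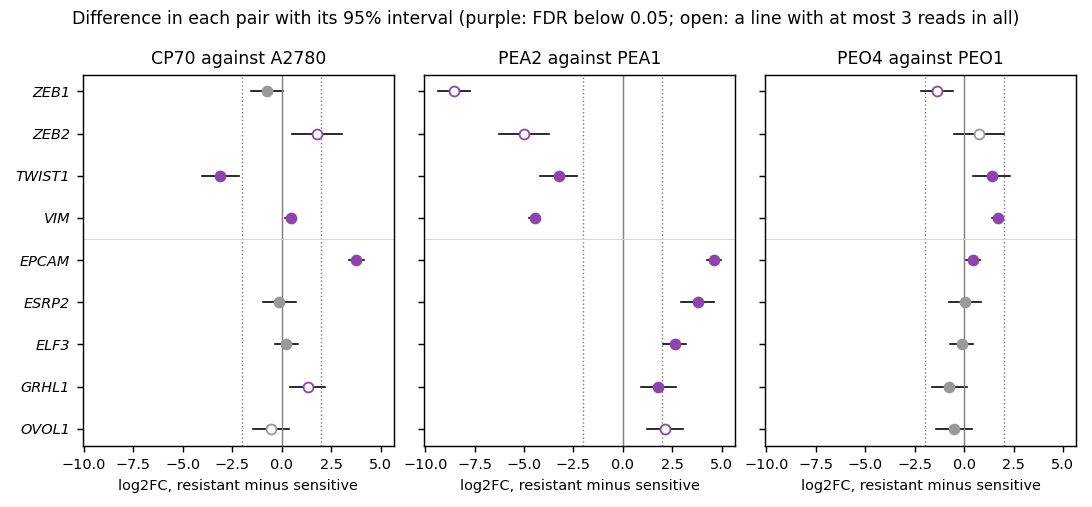
log2FC of each gene (resistant minus sensitive, x axis) with its 95% interval in each pair, with dotted lines at the threshold of 2 on either side. Purple marks an FDR below 0.05 and open points mark genes for which a line had at most 3 reads in all. In the PEA pair the 4 mesenchymal genes lie at or below -3.26 and the 5 epithelial genes at or above 1.79, while the PEO pair lies between -1.36 and 1.71.

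Whether the pairs moved a gene differently was tested directly, as the difference between their log2FCs. Between the PEA and PEO pairs 9 of 9 genes differed by more than 2 with an FDR below 0.05, against 19.4% of all genes. Between the PEA and A2780 pairs it was 6 of 9, against 20.4%, and between the PEO and A2780 pairs 3 of 9, against 14.9%. These counts include genes near the floor. ZEB1 and ZEB2 had at most 4 reads in all in PEO1 and in PEO4, so a fall like that in PEA2 could not have been seen there. In the A2780 pair ZEB2 had 0 reads in A2780 and 6 in CP70, and OVOL1 had 0 in both. For these genes the difference mostly restates the change in PEA2. VIM differed most clearly, at -6.18 ± 0.18 between the PEA and PEO pairs (FDR = 2.62e-15) and -4.92 ± 0.18 between the PEA and A2780 pairs (FDR = 4.03e-14). For TWIST1 the difference between the PEA and A2780 pairs did not pass (-0.16, 95% interval -1.49 to 1.17, FDR = 0.849), whereas the PEO pair differed from the A2780 pair by 4.49 ± 0.64 (FDR = 8.11e-06). EPCAM rose more in PEA2 than in CP70, by 0.82 ± 0.25 (FDR = 0.00783), short of the threshold on size. With quantile normalization that difference was 2.06 (FDR = 7.42e-07), past both thresholds, and with voom weights it did not pass (FDR = 0.160). VIM rose more in PEO4 than in CP70 (1.26 ± 0.18, FDR = 1.21e-05), again short of it.

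The other genes of the programme were counted on lists drawn up by role. Of 32 epithelial junction and surface genes in the table, 27 were higher and 0 lower in PEA2 by both thresholds (7.93% and 6.15% of all genes), and 31 of 32 rose at the FDR alone (32.5% of all genes), with a median log2FC of 4.56 (4.42 with genes at 0 reads set to their bound) against 0.01 over all genes. CDH1, which encodes E-cadherin, went from 6 reads in PEA1 to 5470 in PEA2 (log2FC 9.28, FDR = 1.99e-11), and the simple-epithelium keratin KRT7 from 7 to 8085 (9.23, FDR = 2.29e-12). In CP70 the median log2FC of the 32 was 0.73 against -0.02 over all genes. At the FDR alone 15 rose and 3 fell, against 22.2% and 17.7% of all genes. By both thresholds 11 were higher, against 5.66% of all genes, and 0 lower, against 3.4%. They included the desmosome gene DSP, at 548 reads against 1 (ratio 376, 95% counting interval 67.2 to 14871), and the keratin KRT18, at 906 against 9 (log2FC 5.84, FDR = 5.34e-17). CDH1 itself had 0 reads in both A2780 and CP70. In PEO4 1 of the 32 was differentially expressed, against 6.22% of all genes. This was KRT7 (log2FC -2.44, FDR = 0.000291). At the FDR alone 26 of the 32 did not pass, against 7517 of 12853 genes, and CDH1 was among the 26 (-0.62, FDR = 0.397).

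Of 10 other epithelial regulators in the table, 6 were higher in PEA2, against 7.93% of all genes, and 8 rose at the FDR alone, against 32.5% (median 4.52, or 4.07 with bounds). EHF, an ETS factor close to ELF3, had 3761 reads against 0, at least 752-fold higher, and ESRP1, the paralog of ESRP2, had 2505 against 0, at least 501-fold higher. In CP70 the pioneer factor gene FOXA1 rose (322 reads against 8, log2FC 4.53, FDR = 8.41e-07), as did KLF4 (10 against 0, at least 2.29-fold higher), whereas ESRP1, GRHL2, OVOL2 and EHF had at most 2 reads in either line. In PEO4 EHF fell from 1804 reads to 12 (log2FC -6.63, FDR = 9.83e-09) and OVOL2 from 536 to 74 (-2.21, FDR = 0.00286). These were the only 2 of the 10 past both thresholds in that pair, against 6.22% of all genes. ELF3 and OVOL1, their relatives among the 9 genes, did not pass there.

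Of 9 other inducing factors in the table, 2 fell and 0 rose in PEA2 by both thresholds, against 6.15% and 7.93% of all genes. At the FDR alone in limma 3 fell and 4 rose, shares near the 29.4% and 32.5% of all genes. TCF4, which encodes an E-protein partner of TWIST factors, was 7.97-fold lower (FDR = 1.83e-07). SNAI2, which encodes SLUG, a repressor like SNAI1, did not pass there, with 10 reads in each line (FDR = 0.377). In CP70 SNAI2 fell with TWIST1, from 464 reads to 21 (log2FC -4.88, FDR = 3.61e-07), and TCF4 fell as well (-3.05, FDR = 2.59e-07). TWIST2, the paralog of TWIST1, went the other way, from 0 reads to 202, at least 46.2-fold higher (FDR = 9.80e-11). In PEO4 SNAI2 went from 22 reads to 2, a ratio of 7.35 with a counting interval of 1.81 to 64.5.

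The mesenchymal genes did not move as a block. Of 27 in the table, 7 fell and 3 rose in PEA2 by both thresholds, against 6.15% and 7.93% of all genes, with a median log2FC of -1.04. It became 0.0 once genes near the floor were set to their bounds or to no difference. That 0.0 is the value given to the 2 genes near the floor in both lines, COL3A1 and THY1, and is not a measured median. COL1A1 (-6.67, FDR = 9.02e-12) and the matrix protease gene MMP2 (-6.41, FDR = 6.12e-10) fell alongside VIM. SPARC, a matrix glycoprotein gene (5.64, FDR = 1.34e-13), and S100A4 (4.27, FDR = 4.12e-10) rose. So did FN1, the fibronectin gene, from 10099 reads to 323333 (4.21, FDR = 4.55e-11), named here after its values were seen since it is the remaining 1 of the 3. N-cadherin, CDH2, fell in PEA2 (-2.06, FDR = 2.08e-06) and in CP70 (-1.63, FDR = 6.62e-05) and did not pass in PEO4 (-0.49, FDR = 0.168).

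In CP70 4 of the 27 mesenchymal genes were higher, against 5.66% of all genes, and 1 lower, a share near the 3.4% of all genes. COL1A2 had 206 reads against 3 (ratio 47.1, counting interval 15.9 to 230.2), and SPARC fell by 3.16 (FDR = 7.80e-10). In PEO4 7 were higher and 3 lower, against 2.86% and 3.37% of all genes. COL3A1 had 538 reads against 0, at least 268-fold higher, and COL1A2 rose by 4.30 (FDR = 1.94e-06), while TGFBI (-3.92, FDR = 1.03e-07) and COL5A1 (-2.10, FDR = 0.00483) fell. VIM rose in PEO4 beside COL3A1 and COL1A2, with the epithelial junction genes mostly not passing.

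**Figure D4:**
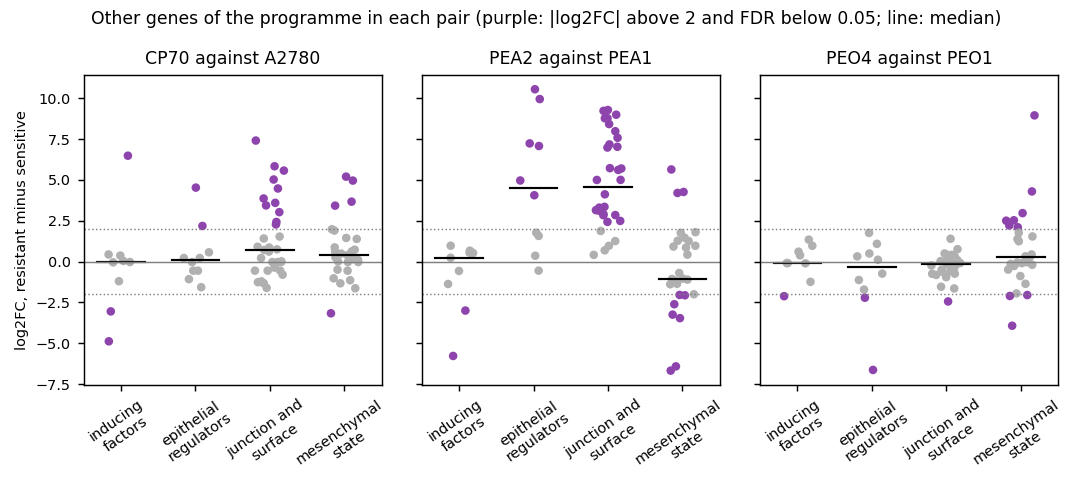
log2FC (resistant minus sensitive, y axis) of the other listed genes of the programme in each pair, 1 point per gene and a line at the median, with dotted lines at 2 and -2. Purple marks genes past both thresholds, and the 32 junction and surface genes stand out in the PEA pair with a median of 4.56.

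Genes with the pattern most like those of ZEB1, VIM, EPCAM and ESRP2 were found by the distance between the 6 line means after centring each gene (log2 units). Nearest to EPCAM were MAP7, at 0.853, MPP7, at 1.34, and CDC42BPG, at 1.57. Nearest to ESRP2 were DENND1C (0.333), SLC52A3 (0.848) and CRB3 (0.857), the last a polarity gene that was also on the junction list. VIM lay nearest to ZIC5 (1.71), FAM101B (1.91) and CRAT (2.21). ZEB1 had no such close neighbour, the nearest being MSRB3 (3.42), FAM101B (3.74) and ANO3 (3.75). These distances describe 6 lines, and genes with 0 reads in some lines take part of their pattern from the 0.5 reads added.

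Reads on these genes carry a limit of annotation. On GRCh37 VIM, ZEB1, ZEB2, OVOL1 and ELF3 each overlap an antisense gene (VIM-AS1, ZEB1-AS1, ZEB2-AS1, OVOL1-AS1 and ELF3-AS1), and ESRP2 overlaps NFATC3 on the opposite strand. GRHL1 (ENSG00000188525 and ENSG00000289033), TWIST1 (ENSG00000232821) and EPCAM (RN7SKP119) also overlap genes on the opposite strand. The library kit keeps strand, but whether the counting used it is not given in the sources used here.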

How the data were processed

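RNA-seq of 18 libraries was used, 3 of each of 6 lines, grouped by the cell line in the labels. Per the labels, libraries were made from rRNA-depleted total RNA with a directional kit. The authors' processing notes name Bowtie2, featureCounts, limma and hg19, and the table that the authors deposited gives 12853 genes as log2 CPM, each count raised by 0.5 reads. The filter that left these genes is not given in the sources used here. Whole reads were recovered from these values (within 0.05 of a whole number) and gave depth, the floor of 3 reads over the 3 libraries of a line, ratios with exact binomial 95% counting intervals and lower bounds. Intervals, bounds and floors cover counting error only.

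Lines and pairs were compared with limma 3.58.1 in R 4.3.3, with 1 mean per line in 1 fit of 18 libraries, a variance trend, and Benjamini-Hochberg adjustment over 12853 genes. The calculation was tested on simulated data. Counts in lists were not tested. The genes, lists and tests were chosen with earlier results of these data known. Named genes were the 10 genes, CDH1 and CDH2, up to 2 highest and 2 lowest differentially expressed genes per list and pair, and the 3 nearest patterns to ZEB1, VIM, EPCAM and ESRP2. A few of the genes so named are left out of the text, though counts over lists include them. Alternatives were separate fits of the pairs, only genes whose mean log2 value exceeded 0, quantile normalization, a replicate block, no variance trend, voom weights, 2 reads added, other thresholds and leaving out each library. Those of the index of epithelial against mesenchymal genes were added after the data were seen. No sequencing batch is named in the labels.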

Additional observations from a re-analysis of the deposited data

Results flagged for a closer look

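Differences between pairs are listed here because a test of the difference itself passed (|difference| above 2 and FDR below 0.05 in limma, resistant minus sensitive in each pair). Among the inducing factors, the change of ZEB1 in the PEA pair differed from that in the A2780 pair by -7.78 and from that in the PEO pair by -7.19, and for ZEB2 these differences were -6.79 and -5.77 (-6.00 and -4.98 without PEA2 replicate 2, -4.23 and -4.31 with 2 reads added). For ZEB1 the difference from the A2780 pair was -6.13 with 2 reads added and that from the PEO pair -8.36 with quantile normalization. Reads of ZEB1 and ZEB2 in the PEO pair, and of ZEB2 in the A2780 pair, lay near the floor. A fall like that in PEA2 could not have been seen there. TWIST1 differed by -4.65 between the PEA and PEO pairs (-4.04 without PEA2 replicate 1, -3.61 with 2 reads added and -5.74 with quantile normalization) and by 4.49 between the PEO and A2780 pairs. For VIM the PEA pair differed from the A2780 pair by -4.92 and from the PEO pair by -6.18.

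Among the epithelial genes, GRHL1 differed by 2.54 between the PEA and PEO pairs and by -2.07 between the PEO and A2780 pairs. The latter rests on 10 reads against 2 in the A2780 pair and fell short of the threshold on size without A2780 replicate 1 (-1.45), CP70 replicate 2 (-1.88), CP70 replicate 3 (-1.99) or PEO1 replicate 1 (-1.98), with 2 reads added (-1.20) and with quantile normalization (-1.64). For OVOL1 the PEA pair differed from the A2780 pair by 2.69 and from the PEO pair by 2.65. With 2 reads added these were 1.26 and 1.18. OVOL1 had 0 reads in both A2780 and CP70, so its log2FC of -0.55 there came from library sizes and was no measured change. The change in the PEA pair, a log2FC of 2.14, rests on 11 reads against 0. For ELF3 the differences of the PEA pair from the A2780 and PEO pairs were 2.38 and 2.74, and for ESRP2 they were 3.91 and 3.73, the former 4.56 with quantile normalization. EPCAM differed by 4.14 between the PEA and PEO pairs and by -3.31 between the PEO and A2780 pairs, the latter -1.91 with quantile normalization.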

How the results depend on the processing

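No log2FC or difference between pairs changed direction past a threshold under any alternative run. Of 348 alternative values of a gene's log2FC, 315 stood on the same side of the FDR threshold as the reported value, 27 lost the call and 6 gained it. For the 483 differences between pairs, called on size and FDR together, these numbers were 473, 9 and 1, and the 9 fell short of 2 in size with an FDR below 0.05. The count of differentially expressed genes in the A2780 pair (2) became 4 at |log2FC| above 1 and 5 at the FDR alone (39.9% of all genes). In the PEO pair (0) it became 3 at |log2FC| above 1 and 4 at the FDR alone (41.5% of all genes). With quantile normalization it was 1 in the PEO pair, against 1054 of 12853 genes. The share of all genes at |log2FC| above 1 was not computed. With quantile normalization the differences between the PEO and A2780 pairs numbered 1 in place of 3, those of EPCAM (-1.91) and GRHL1 (-1.64) falling short of 2. Leaving out each library in turn gave 2 to 3 genes in the A2780 pair, 7 to 8 in the PEA pair and 0 in each fit of the PEO pair. It gave 6 differences in each fit between the PEA and A2780 pairs, 9 in each between the PEA and PEO pairs, and 2 to 3 between the PEO and A2780 pairs. The filter on mean log2 value removed 355 genes, ZEB2 among them. The index difference became 0.65, 2.79 and -0.50 in the A2780, PEA and PEO pairs with 2 reads added. With the replicate block the counts were 2, 8 and 0, and 6, 9 and 3 for the differences between pairs. Same-numbered libraries correlated between -0.184 and 0.22 in their deviations from the line means, and not every pair was over 0.1, so the numbers were not taken as pairing. Except where stated, the causes were not tested.

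Depth limits ZEB1, ZEB2, OVOL1 and GRHL1 in their low lines, which had few or no reads, and PEA1 is the shallowest line. Depth also limits ELF3 and ESRP2 in A2780 and CP70 (4 to 11 reads in all), TWIST1 in PEA2 (5 reads) and EPCAM in A2780 (10 reads). With 1 line of each kind per pair, the line and its resistance cannot be told apart.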
